A study of Mus musculus with 2 samples.

Results

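Dppa2, Dppa3 and Dppa4 (developmental pluripotency associated genes) were picked by symbol from a table of 55415 features, together with Duxf3, the mouse Dux gene; the symbol Dux itself was not in the table. All 3 Dppa genes and Duxf3 were found. The cells were 1 mouse embryonic stem cell (mESC) line that carries GFP driven by MERVL, a retroviral repeat family whose promoter is active in the 2-cell embryo, and H2B-mIFP, a far-red histone label for following cells. Both groups carried both transgenes, and they were labelled MERVL GFP positive and MERVL GFP negative, with 1 single-cell library each. The purpose stated for the line was to follow the fate of 2C-like cells, which are rare cultured cells that transcribe genes of the 2-cell embryo. No treatment, time or culture condition was stated for either group, nor how cells were separated by the reporter.

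DPPA2 and DPPA4 are small nuclear proteins with a DNA-binding SAP domain that form a complex on CG-rich promoters of pluripotent cells. That complex is known as an activator of Dux, and DUX in turn activates MERVL and the Zscan4 genes. DPPA3 (also called STELLA or PGC7) is a maternal and germline protein known to restrain the DNA methylation factor UHRF1, and it has also been placed upstream of the 2C-like program. The annotation puts Dppa4 at chr16:48283733-48294237 and Dppa2 at chr16:48303908-48319723, both on the plus strand of GRCm38, so that these partners are also neighbours with 9670 bases between them. Dppa3 lies at chr6:122626410-122630272 on the plus strand, and Duxf3 at chr10:58229979-58232675 on the minus strand. Duxf3 belongs to a repeated gene family, and Dppa3 has a transcribed processed pseudogene, Dppa3-ps, on chromosome X. How reads shared by such copies were counted was not given in the sources used here, so the Duxf3 values are uncertain and Dppa3 could exchange reads with its pseudogene.

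The positive library held 4596 cells after filtering, with 138303336 counts in all, and the negative library 3832 cells with 156406894. The counts are read here as UMIs, the molecule tags of droplet assays. The median depth of a cell was 29554.5 UMIs in the former and 39099.5 in the latter, with mitochondrial shares of 2.56% and 1.60%. Levels are given as CPM, the UMIs of a gene per 1000000 UMIs of the library or cell class, with 95% Poisson intervals that cover counting error only. Each group was 1 library and the batch label repeats the group. Batch and group therefore cannot be told apart, no difference has a replicate check and no test was possible. The libraries shared 3 cell barcodes. GFP stood at 205 CPM in the positive and 0.454 CPM in the negative library. The stem cell marker Pou5f1 was present in both, at 278 and 389 CPM. Nanog, another such marker, was at 410 CPM in the positive and 192 CPM in the negative library. A list of 10 primitive endoderm markers (a lineage of the early embryo that also appears in stem cell cultures) summed to 717 CPM in the positive and 304 CPM in the negative library, all 10 markers being detected in both. The part of those cells in the differences below was not tested, except where values without them are given. CPM values are not corrected for gene length, so each gene is compared only with itself.

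Dppa2 was higher in the positive library, whereas its neighbour and partner Dppa4 was not. For Dppa2 the positive library gave 32355 UMIs at 234 CPM (231 to 237), and the negative library 12064 UMIs at 77.1 CPM (75.8 to 78.5). Their ratio was 3.03 (2.97 to 3.10), a log2 ratio of 1.59 on CPM + 1. For Dppa4 the positive library gave 9408 UMIs at 68.0 CPM (66.7 to 69.4), and the negative library 11820 UMIs at 75.6 CPM (74.2 to 76.9). Its ratio of 0.900 (0.876 to 0.925) put it slightly below the negative library, and the intervals did not overlap. On the log2 scale Dppa4 differed by -0.15, while the median of all tested genes was 0.14.

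Dppa3, the maternal factor, showed the widest gap of the 3 Dppa genes. The positive library gave 7101 UMIs at 51.3 CPM (50.2 to 52.6), and the negative library 1288 UMIs at 8.23 CPM (7.79 to 8.70). Their ratio was 6.23 (5.87 to 6.62), a log2 ratio of 2.50. Leaving out the 21 positive-library cells with the most Dppa3, a choice made once their values were known, lowered that log2 ratio to 1.89. Dppa3-ps itself held 32 UMIs in the positive and 3 in the negative library.

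Duxf3 was near the floor of detection in the negative library. The positive library gave 355 UMIs at 2.57 CPM (2.31 to 2.85), and the negative library 3 UMIs at 0.0192 CPM (0.00396 to 0.0561). The ratio of 134 therefore has a wide interval, 45.4 to 652. Its level was too low for the filter of the comparison across genes, which required 10 CPM in a library.

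**Figure D1:**
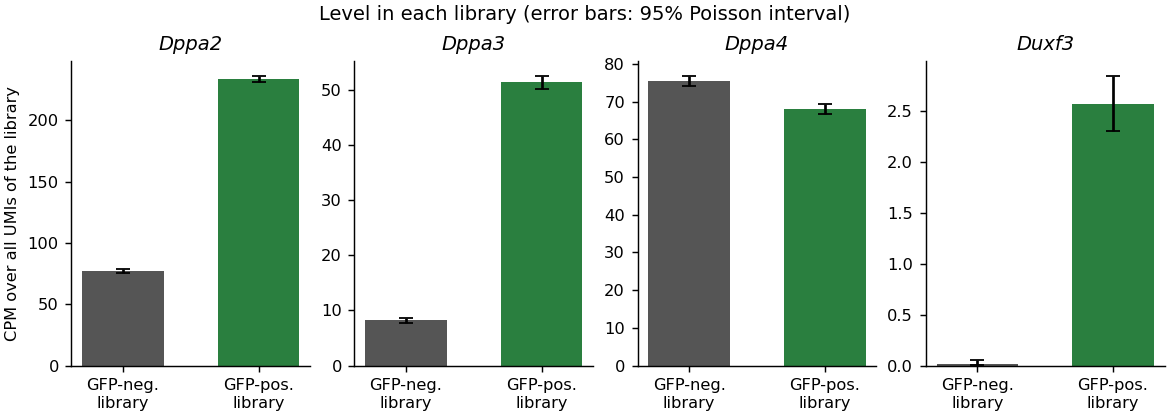
Level of each gene in the GFP-negative and GFP-positive library, as CPM (UMIs per 1000000 of the library) on an axis of its own from 0; bars are the single library of each group and error bars the 95% Poisson interval. Dppa2, Dppa3 and Duxf3 are higher in the positive library, while Dppa4 is at 68.0 against 75.6 CPM.

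Against all genes, the Dppa genes split. Of 8042 genes with enough counts, 7.01% were at least 2-fold higher in the positive library and 0.995% at least 2-fold lower. Dppa2 and Dppa3 were among the higher genes, with 311 and 203 genes at or above their ratio, and Dppa4 was in neither class. Another scaling (TMM, a trimmed mean over genes) moved the median of all genes from 0.14 to -0.16 and the share of higher calls among all calls from 87.6% to 59.2%. Under it the log2 ratios were 1.30 for Dppa2, 2.23 for Dppa3 and -0.44 for Dppa4. Such a scaling shifts every gene of a library alike.

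Across single cells, the libraries differed in both Dppa2 and Dppa3 in the share of cells with a UMI and at the upper end. To set cells of unequal depth side by side, each was thinned at random to 10000 UMIs, and 194 cells of the positive and 8 of the negative library were too shallow for this. At that depth 72.3% of cells in the positive library had a Dppa2 UMI (71.0 to 73.6, exact binomial) against 50.1% in the negative library (48.5 to 51.7). Without thinning the shares were 91.6% and 86.6%. The median was 1 UMI in both libraries. The upper quartile was 3 UMIs against 1, and the 95th percentile 9 against 3. No negative-library cell had more than 6 Dppa2 UMIs, whereas the positive-library maximum was 65. At least 10 Dppa2 UMIs were found in 180 of 4402 positive-library cells, or 4.09%. The negative library had 0 of 3824, a count that allows at most 0.0785%.

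Dppa3 was spread far less evenly over cells. A Dppa3 UMI was present in 13.9% of cells in the positive library (12.9 to 14.9) and in 6.07% in the negative library (5.33 to 6.87), with 27.4% and 18.3% before thinning. In the positive library the richest cell held 153 of its 10000 UMIs in Dppa3. The 44 cells that make up the top 1% held 53.7% of all thinned Dppa3 UMIs there, while for Dppa2 the top 1% held 12.0% and for Dppa4 7.08%. If the same UMIs had been spread evenly with counting error alone, 41.5% of positive-library cells would have had one, instead of 13.9%. At least 20 Dppa3 UMIs were found in 21 positive-library cells, or 0.477%, and in 0 of the negative library, a count that allows at most 0.0785%.

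For Dppa4 the share of cells with a UMI was 46.2% (44.7 to 47.7) in the positive and 51.5% (49.9 to 53.1) in the negative library. Even spreading of its UMIs would have given 48.8% and 53.3%, slightly above both shares and just outside their intervals. Before thinning these were 77.1% and 90.4%, a wider gap in libraries whose depths differ. The cells with 5 or more Dppa4 UMIs numbered 11 in the positive and 3 in the negative library. Duxf3 was found in 2.66% of thinned positive-library cells (2.20 to 3.18) and in 2 negative-library cells, or 0.0523% (0.00633 to 0.189). No cell population that certainly lacks these transcripts was present to set the background from free RNA. In negative-library cells rich in endoderm markers, Dppa2 was detected in 65.3%, Dppa3 in 3.47% and Dppa4 in 43.9%, at a median depth of 38904 UMIs.

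**Figure D2:**
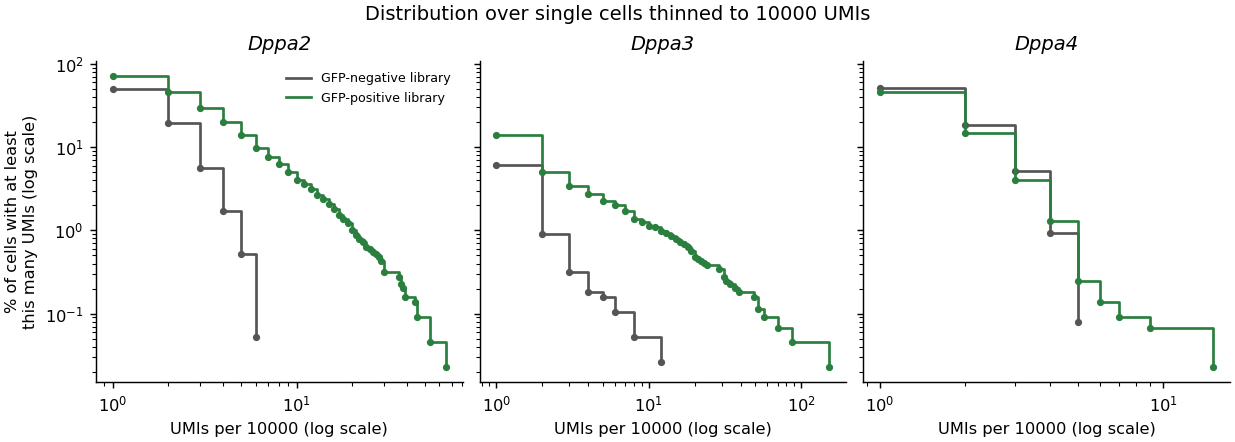
Percentage of cells (log scale) with at least the number of UMIs on the x axis (log scale), for cells thinned to 10000 UMIs, in the GFP-positive (green) and GFP-negative (grey) library. The Dppa2 and Dppa3 curves of the positive library run on to 65 and 153 UMIs, past the negative-library maxima of 6 and 12, while for Dppa4 the maxima are 15 and 5 and the shares of cells with a UMI 46.2% and 51.5%.

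Within the positive library, Dppa2 was higher in each successive class of cells ordered by Zscan4 transcript. Zscan4 here is the sum of Zscan4a to Zscan4f, genes of the 2-cell stage linked to telomere maintenance, per 10000 thinned UMIs. In the 1965 cells with 0 Zscan4 UMIs Dppa2 was at 179 CPM (176 to 182), and with 1 UMI it was at 209 CPM (204 to 214). The classes with 2 to 4, 5 to 9 and 10 to 19 UMIs had 300, 330 and 363 CPM. The 20 to 39 class had 444 CPM (421 to 469), and the 92 cells with 40 or more had 514 CPM (481 to 549). No neighbouring classes overlapped in their intervals, but these cover counting error only and not the variation between cells. The median cell had 2 thinned Dppa2 UMIs in every class from 2 to 4 upwards. In the top class 5 of the 92 cells had 20 or more, with a maximum of 53. The share of cells with a Dppa2 UMI was 67.2%, 69.9% and 77.6% in the lowest classes and lay between 81.5% and 82.6% from the 5 to 9 class upwards, with no further increase. The share with 5 or more Dppa2 UMIs was 9.36% in the zero class and 30.4% in the top class.

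Depth and other transcripts moved along the same classes. The median cell had 33065 UMIs in the zero class and 18305 in the top class, and the mitochondrial share was 2.36% and 3.38%. Dppa2 UMIs per whole cell were 6.04 and 6.81 in the classes with 0 and 1 Zscan4 UMIs and lay between 8.79 and 9.67 from the 2 to 4 class upwards. Over those upper classes the median depth went from 29274 to 18305 UMIs, while Dppa2 went from 300 to 514 CPM. The list of 8 pluripotency markers summed to 14985 CPM in the zero class and 7084 CPM in the top class. Most of this was Dppa5a, at 12109 and 5965 CPM. Pou5f1 was at 308 and 155 CPM and Zfp42 at 1085 and 302 CPM. Nanog was at 417 and 268 CPM, with 450 CPM in the class with 1 Zscan4 UMI. The endoderm list summed to 778 and 238 CPM in the same classes. The part of depth and of these lists in the Dppa2 and Dppa4 values was not tested. Without cells holding 5 or more endoderm UMIs, the log2 ratio of Dppa2 between cells with at least 5 and with 0 Zscan4 UMIs was 1.18, against 1.05 with them.

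Dppa4 did not share this gradient. It was at 71.1 CPM (69.1 to 73.2) in cells with 0 Zscan4 UMIs and 54.3 CPM (43.9 to 66.4) in the top class, and the classes between lay from 59.9 to 71.2 CPM. Per whole cell it had 2.40 UMIs in the zero class and 1.02 in the top class, where cells were shallower. Between cells with at least 5 and with 0 Zscan4 UMIs, Dppa2 was at 371 against 179 CPM (log2 1.05) and Dppa4 at 60.7 against 71.1 CPM (log2 -0.23), while the median of all genes was -0.10. In that comparison 7.51% of 8292 genes were at least 2-fold higher and 2.47% at least 2-fold lower, and 594 genes stood at or above Dppa2.

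Dppa3 followed no steady course over the Zscan4 classes. From 0 upwards they held 33.4, 48.9, 79.8, 40.5, 143, 55.3 and 187 CPM, so that neighbouring classes differed in both directions by far more than their counting error. The share of cells with a Dppa3 UMI stayed between 12.5% and 17.1%. Very rich cells were spread unevenly: the class at 143 CPM held 5 of the 21 cells with 20 or more Dppa3 UMIs, and the class at 55.3 CPM held 0. Cells with at least 5 Zscan4 UMIs had 83.4 CPM against 33.4 CPM in cells with 0, a log2 ratio of 1.29 that was 0.34 without those 21 cells. Since these were picked by their Dppa3 level, the value without them shows only how much of the summed level they hold.

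Duxf3, the direct link between the Dppa complex and the 2C program in the textbook order, was higher with Zscan4 at every step. It was at 0.740 CPM (49 UMIs, 0.547 to 0.978) in the zero class and 1.88 CPM in the class with 1 UMI. The classes with 2 to 4 and 5 to 9 UMIs had 3.77 and 5.85 CPM. The top class had 16.2 CPM, from 28 UMIs (10.7 to 23.4), and Duxf3 was detected in 13.0% of its cells against 0.509% in the zero class. From 2 UMIs upwards neighbouring classes overlapped in their intervals.

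**Figure D3:**
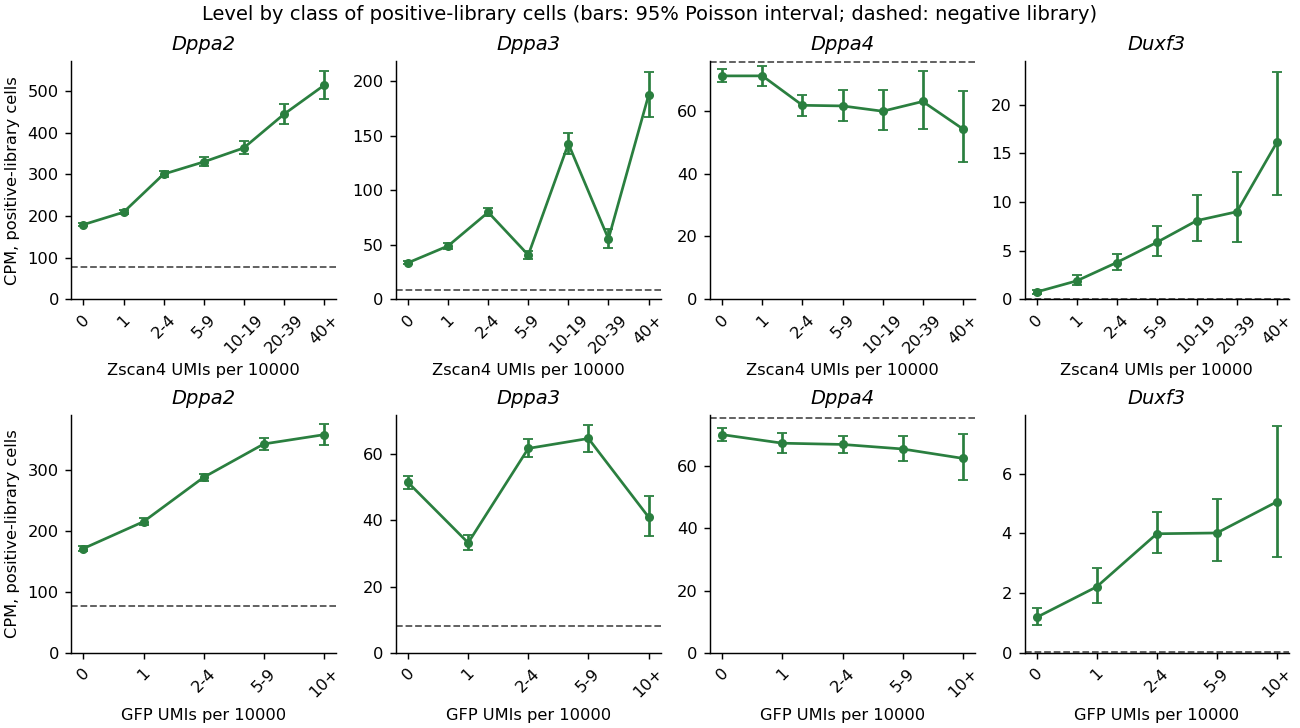
CPM of each gene in positive-library cells grouped by Zscan4 UMIs (top row) and by GFP UMIs (bottom row) per 10000 thinned UMIs; points are summed levels with 95% Poisson intervals and the dashed line is the level of the GFP-negative library. Dppa2 goes from 179 to 514 CPM over the Zscan4 classes, Dppa4 stays below its dashed line and Dppa3 moves in both directions.

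The reporter transcript gave the same order for Dppa2. Cells with 0 GFP UMIs had 171 CPM of Dppa2 (167 to 174), and those with 1 UMI had 215 CPM. The classes with 2 to 4, 5 to 9 and 10 or more GFP UMIs had 287, 342 and 357 CPM, the last (340 to 375) overlapping the one before it (333 to 351). The median depth was 32481 UMIs in the lowest and 22596 in the highest of these classes, and Dppa2 UMIs per whole cell were 5.73 and 8.45, with 9.05 in the class of 5 to 9. Dppa4 lay between 62.5 and 70.2 CPM over the 5 classes, with the 2 ends overlapping in their intervals. Dppa3 had 51.4, 33.2, 61.7, 64.7 and 41.0 CPM from the lowest to the highest class, again with no steady course.

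Cells with at least 5 GFP UMIs had 345 CPM of Dppa2 against 171 CPM in cells with 0, a log2 ratio of 1.01. Over the same cells the pluripotency list was at 12242 against 14485 CPM and the endoderm list at 784 against 683 CPM. Nanog, on the former list, lay between 393 and 429 CPM over the GFP classes. The part of these lists in the Dppa values was not tested. At least 2-fold higher were 4.99% of 8213 genes and at least 2-fold lower 1.73%, around a median of -0.12, and 407 genes stood at or above Dppa2. Dppa4 was at 64.9 against 70.2 CPM, or -0.11, close to the median of all genes. Among cells with 0 Zscan4 UMIs its value was 0.01. Dppa3 was at 59.3 against 51.4 CPM, or 0.20. It was 0.40 among cells with 0 Zscan4 UMIs and 0.76 with cells thinned to 5000 UMIs, and -0.62 without the 21 richest Dppa3 cells, picked by the same measure.

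Ordering cells by both transcripts at once separated the gradients in part. Among cells with 0 Zscan4 UMIs, Dppa2 was at 149, 168, 238 and 288 CPM in cells with 0, 1, 2 to 4, and 5 or more GFP UMIs. Among cells with 1 to 4 Zscan4 UMIs it was at 188, 234, 277 and 357 CPM. From 5 Zscan4 UMIs upwards there was no such order with GFP: the class of 5 to 19 had 339, 295, 370 and 333 CPM, and the class of 20 or more had 394, 500, 486 and 465 CPM. The smallest combination held 24 cells. Dppa4 lay between 49.6 and 74.1 CPM over all 16 combinations.

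**Figure D4:**
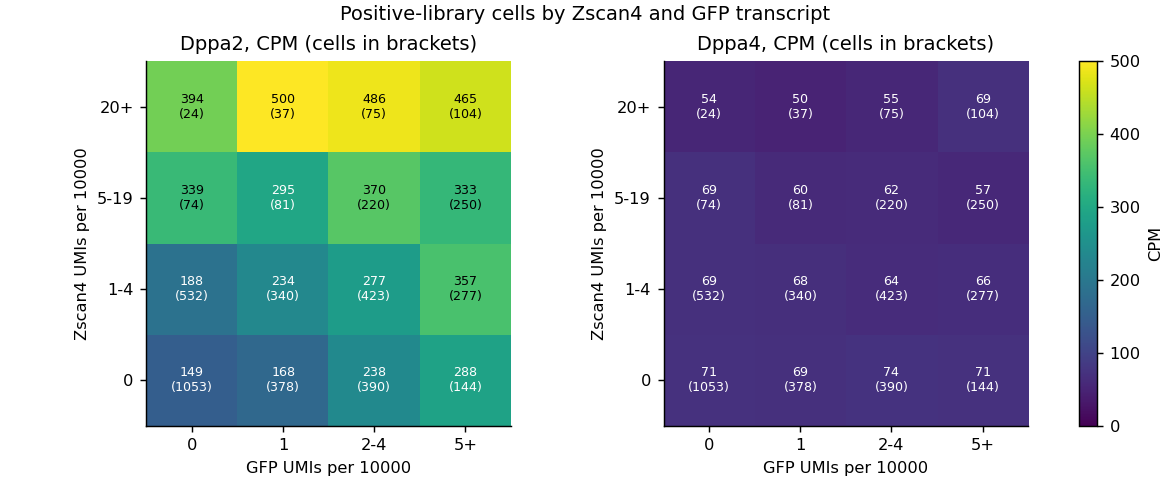
CPM of Dppa2 (left) and Dppa4 (right) in positive-library cells grouped by GFP UMIs (x axis) and Zscan4 UMIs (y axis) per 10000 thinned UMIs, with the number of cells in brackets and 1 colour scale for both. Dppa2 goes from 149 CPM in cells without either transcript to 500 CPM, and Dppa4 stays between 49.6 and 74.1 CPM.

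Positive-library cells in which neither transcript was found still differed from the negative library in Dppa2 and Dppa3. In those 1053 cells Dppa2 was at 149 CPM (145 to 153) against 77.1 CPM in the negative library, a log2 ratio on CPM + 1 of 0.94, just under the 2-fold mark. Dppa3 was at 36.7 against 8.23 CPM, a log2 ratio of 2.03. Of 7827 genes 2.94% were at least 2-fold higher and 0.256% at least 2-fold lower, with 46 genes at or above Dppa3 and 260 at or above Dppa2. Dppa4 was at 70.8 against 75.6 CPM, or -0.09, and Duxf3 at 0.470 CPM from 17 UMIs. The endoderm list was also higher in these cells, at 730 against 304 CPM, and the list of 2C-like markers at 114 against 9.09 CPM. Having 0 UMIs after thinning does not show that a cell lacks the transcript.

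Seen from the other side, cells rich in Dppa2 were more often rich in Zscan4. Among positive-library cells with 0 Dppa2 UMIs, 12.7% (10.9 to 14.7) had at least 5 Zscan4 UMIs, and among those with 10 or more Dppa2 UMIs 36.1% (29.1 to 43.6) did. Most cells of the Dppa2-rich class therefore had fewer than 5 Zscan4 UMIs. For Dppa4 the share went from 20.6% in cells with 0 UMIs to 17.9% in those with 3 or more, with overlapping intervals. Of the 21 cells with 20 or more Dppa3 UMIs, 8 had at least 5 Zscan4 UMIs, or 38.1% (18.1 to 61.6). Among cells without Dppa3 the share was 19.5% (18.2 to 20.8), with overlapping intervals. The classes between, starting at 1, 2 and 5 Dppa3 UMIs, had 21.4%, 15.2% and 20.8%. Per cell, on log2 of thinned UMIs + 1 over 4402 cells of the 1 library, Pearson's r with Zscan4 was 0.21 for Dppa2, 0.03 for Dppa3, -0.04 for Dppa4 and 0.18 for Duxf3. These values share library and thinning and are a description.

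The negative library offered few cells in which Zscan4 or GFP could be followed. Only 14 cells had a Zscan4 UMI after thinning, and Dppa2 was at 103 CPM in them against 77.0 CPM in the others. GFP was also found in 14 cells, with Dppa2 at 84.3 against 77.1 CPM. Cell-to-cell variation there was therefore measured by the Fano factor, the variance over the mean of thinned UMIs, which is 1 for counting error alone. It was set against the median of the 200 genes nearest in mean.

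Inside the negative library, Dppa4 varied no more than genes of its level, Dppa2 slightly more, and Dppa3 more than nearly all. Dppa4 had a Fano factor of 1.08, the same as the median of similar genes at this rounding, with 103 of the 200 below it. Dppa2 had 1.21, or 1.12 times that median, with 175 of 200 below it. Dppa3 had 2.16, or 2.10 times its median, with 198 of 200 below it. In the positive library the same measure was 1.14 for Dppa4, 5.09 for Dppa2 and 25.5 for Dppa3. Depth bears on these values: thinned to 20000 UMIs, the negative-library ratios were 1.38 for Dppa2 and 4.15 for Dppa3.

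**Figure D5:**
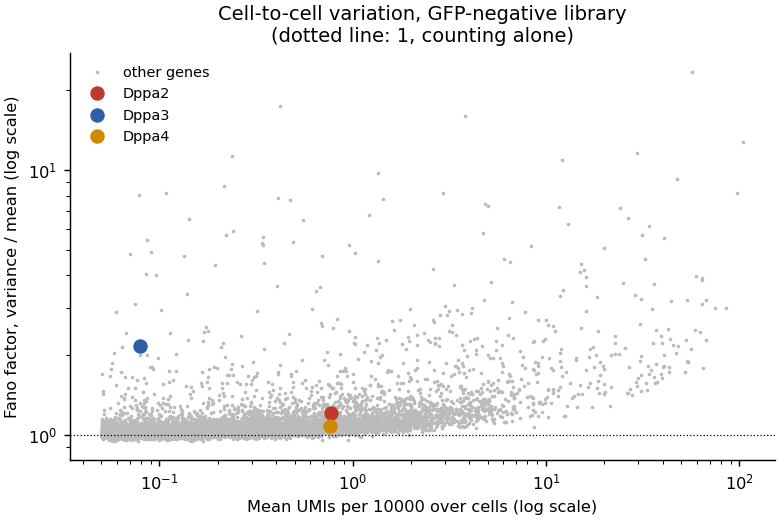
Fano factor (variance over mean of UMIs per 10000, log scale) against mean UMIs per 10000 (log scale) for genes of the GFP-negative library, each point a gene over 3824 thinned cells. Dppa4 at 1.08 sits in the body of genes of its mean, Dppa2 at 1.21 at its upper part and Dppa3 at 2.16 above it.

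The uneven Dppa3 signal of the negative library came from few cells. Only 35 of 3824 cells had 2 or more Dppa3 UMIs, or 0.915% (0.638 to 1.27), and 1 cell reached 12 UMIs. The top 1% of cells, 38 in number, held 36.2% of the thinned Dppa3 UMIs. In counts this sparse, counting error alone also gives such cells a sizeable share, which was not worked out. It would have put 0.292% of cells at exactly 2 UMIs and 0.00773% at 3, against 0.601% and 0.131% seen. The summed level of Dppa3 was higher in cells rich in Nanog, a naive pluripotency factor, at 16.2 CPM (13.7 to 18.9) in the 244 cells with 6 or more Nanog UMIs against 7.64 CPM (6.82 to 8.52) in the 1060 cells with 0. The shares of cells with a Dppa3 UMI, 10.2% (6.74 to 14.8) and 5.66% (4.35 to 7.23), overlapped in their intervals. The summed level was also higher in the 466 cells with fewer than 5 UMIs of Zfp42, another naive stem cell gene, at 13.3 CPM against 6.76 to 8.78 CPM in the other classes. There the share was 8.37% (6.02 to 11.3), and its interval overlapped that of the highest Zfp42 class, at 6.52%. Poisson intervals of the summed level do not cover its concentration in few cells.

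Dppa2 in the negative library had the opposite order with Nanog. It was at 89.1 CPM (86.3 to 92.0) in cells with 0 Nanog UMIs and at 67.7 CPM (62.6 to 73.2) in cells with 6 or more. With Zfp42 it was at 105 CPM (101 to 110) in the lowest class and between 71.9 and 74.9 CPM in the others. Endoderm markers moved with these classes: their sum was 710 CPM in cells with 0 Nanog UMIs and 140 CPM in the Nanog-rich class, and 1612 CPM in the lowest Zfp42 class. Grouped by the endoderm list itself, Dppa2 was at 72.2 and 74.2 CPM in cells with 0 and 1 to 4 endoderm UMIs, and at 123 and 119 CPM in the 118 cells with 5 to 19 and the 173 cells with 20 or more. Dppa4 was at 77.5 CPM in the lowest and 62.8 CPM in the highest of these classes, and between 71.5 and 77.0 CPM over the Nanog classes.

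The levels of the partners Dppa2 and Dppa4 were also set side by side from cell to cell. In the negative library Dppa4 was at 69.8, 77.5, 86.1 and 90.0 CPM in cells with 0, 1, 2 and 3 or more Dppa2 UMIs. In the positive library it was at 59.6 CPM in cells with 0 Dppa2 UMIs and 121 CPM in those with 10 or more. Pearson's r over cells was 0.07 in the negative and 0.14 in the positive library, and in the positive library no other gene of 2756 had a higher r with Dppa4 than Dppa2. Dppa3 had r = 0.02 with Dppa2 and 0.0040 with Dppa4 in the negative library. In counts this sparse a weak correlation is no finding.

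The genes whose per-cell pattern was most like each Dppa gene in the negative library were all at low r, over 3824 cells that share 1 library. For Dppa2 they were G3bp2 (r = 0.14), Utf1 (0.12), Dnmt3l (0.12), Pfn1 (0.10) and L1td1 (0.10), and all 5 had r between -0.08 and 0.02 in the positive library. For Dppa3 they were Ifitm1 (0.11), S100a6 (0.09), Hsp90aa1 (0.09), Ifitm3 (0.09) and Id3 (0.08), of which Ifitm1 had r = 0.11 in the positive library too, rank 5 of 2757 genes. For Dppa4 they were Utf1 (0.10), Ctbp2 (0.08), Cdca8 (0.08), Nifk (0.07) and Dppa2 (0.07). None of these values was high enough to group the genes by.

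Listed regulators of the 2C-like state were mixed, in a list that also holds Dux and Duxf3. Of 10 genes on the list 7 were in the table and 5 passed the filter, and 2 of those were at least 2-fold higher in the positive library and 0 lower, with a median log2 ratio of 0.90 against 0.14 for all genes, of which 7.01% were higher and 0.995% lower. Under TMM the list count was also 2 higher and 0 lower. Nelfa, a maternal component of the negative elongation factor complex, was at 516 against 47.5 CPM. The Dux-related gene Duxbl1 was at 12.6 against 0.518 CPM. Tbx3 was at 486 against 261 CPM, the chromatin remodeller Smarca5 at 525 against 402 CPM and Trp53 at 228 against 286 CPM. In cells with at least 5 against 0 Zscan4 UMIs 2 of the 5 genes that passed the filter were at least 2-fold higher, beside 7.51% of all genes: Nelfa at 1576 against 221 CPM and Duxbl1 at 31.5 against 6.89 CPM.

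SUMO conjugation is known to restrain DPPA2, with PIAS4 as a ligase. Of 16 SUMO pathway genes 14 passed the filter, and 0 were at least 2-fold higher or lower between the libraries, with a median log2 ratio of -0.10 against 0.14 for all genes. With 7.01% and 0.995% of all genes called, a count of 0 in a list of this size is near the background. Pias4 was at 33.8 against 32.0 CPM and Sumo2 at 907 against 1530 CPM. Under TMM, where 4.75% of genes were called higher and 3.27% lower, Sumo2 was called lower. Of 10 genes of the DNA methylation machinery, which DPPA3 acts on, 9 passed the filter and 0 were called in either direction, again near the background, with a median of -0.10. Uhrf1 was at 90.8 against 97.5 CPM, the maintenance methyltransferase Dnmt1 at 111 against 133 CPM and the demethylating enzyme Tet1 at 197 against 353 CPM, which was called lower under TMM. Of 16 germline genes known to depend on methylation, 13 passed and 5 were at least 2-fold higher, with 0 lower and a median of 0.92, beside 7.01%, 0.995% and 0.14 over all genes. Under TMM 4 of the 13 were called higher and 0 lower. Among them Dazl, a germ cell RNA-binding protein, was at 95.7 against 15.5 CPM and the meiotic gene Sycp1 at 17.0 against 2.40 CPM.

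The same lists were counted in Zscan4-rich against Zscan4-zero cells, where 7.51% of all genes were at least 2-fold higher and 2.47% lower. The SUMO list had 15 genes tested and 0 in either direction, with a median of -0.41 against -0.10 for all genes. In the methylation list 0 of 9 were higher and 2, Tet1 and Tet2, at least 2-fold lower. Of 14 germline genes 1, Tdrkh, was higher and 0 lower. Dppa5a, which shares the family's name and is abundant in stem cells, was at 11499 CPM in the positive and 10359 CPM in the negative library, and Dppa1 had 7 and 1 UMIs.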

How the data were processed

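Single mouse embryonic stem cells were profiled in 1 library per group. The values are raw counts for each gene in each cell, as deposited by the authors. FastQC 0.11.2, Trim Galore 0.6.4, STAR 2.7.6a and the build mm10 are named in the submitters' processing notes; their settings, the counting step, the annotation and cell calling are not given in the sources used here. The extraction text describes a bulk kit, and the counts are taken for UMIs from the cell barcodes and the single-cell label. Coordinates are from GENCODE M21 on GRCm38.

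Cells were kept with at least 1000 UMIs, 500 genes and at most 20% mitochondrial UMIs, which removed 7 positive-library cells and 0 others. No doublet caller was run, so doublets remain. UMIs were summed per library or cell class and scaled to CPM, with exact Poisson and conditional ratio intervals. Shares have Clopper-Pearson intervals at 95%, a share of 0 the limit of 3 counts. Log2 ratios use CPM + 1. Genes were counted as tested with 10 CPM on either side and 50 UMIs in all. Classes used cells thinned to 10000 UMIs. Named are the 3 Dppa genes and Duxf3, the 5 genes most correlated with each Dppa gene among those with a mean of at least 0.5 thinned UMIs, and 2 to 4 genes per list, except that all 5 tested regulators of the 2C-like state are given. The members and lists were chosen with earlier results of these data known. Class edges, Nanog and Zfp42 classes, the leaving out of the richest Dppa3 cells and the list counts under other scalings were chosen after values were seen.

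Alternatives changed scaling (TMM from edgeR 4.0.16, median of ratios, other denominators), cell filters, pseudocount, thresholds, thinning depth and cells left out. Steps were tested on simulated data. Software was R 4.3.3 and Python 3.11.15 with scipy 1.17.1, numpy 2.4.6, matplotlib 3.10.9 and pandas 2.3.3.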

Additional observations from a re-analysis of the deposited data

Results flagged for a closer look

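Dppa2 in the cells richest in primitive endoderm markers differed from cells without them in opposite directions in the libraries. Between cells with 20 or more and with 0 endoderm UMIs, its log2 ratio was 0.71 in the negative library (0.60 to 0.81, 119 against 72.2 CPM) and -0.56 in the positive library (-0.64 to -0.48, 156 against 230 CPM). In the class between, with 5 to 19 endoderm UMIs, Dppa2 was above the zero class in both libraries, at 123 CPM in the negative library and with an interval of 292 to 308 CPM in the positive library, so only the top class reversed. The extreme classes held 173 and 1411 cells in the negative library and 454 and 531 in the positive library. The difference between the libraries was not tested, since each group has 1 library. Dppa4 was lower in endoderm-rich cells in both, at -0.30 in the negative and -0.65 in the positive library.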

How the results depend on the processing

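No replicate could be left out. No paired analysis was possible because there is 1 library in a group. Values that moved by more than their counting interval were as follows. Between libraries, TMM and median-of-ratios scaling both gave log2 ratios of 1.30 for Dppa2 (1.59 in the report), 2.23 for Dppa3 (2.50) and -0.44 for Dppa4 (-0.15); CPM outside ribosomal protein and mitochondrial genes gave 1.55 for Dppa2 and -0.19 for Dppa4, the mean of each cell's CPM 1.67 for Dppa2, and a pseudocount of 0.1 gave 2.63 for Dppa3. Without the cells with 20 or more Dppa3 UMIs, Dppa3 was at 1.89. For Zscan4-high against zero cells, Dppa2 (1.05) was at 1.19 with at least 10 and 0.90 with at least 2 Zscan4 UMIs, 1.09 thinned to 5000 UMIs, and 1.18 without endoderm-rich cells. Dppa3 (1.29) was at 1.87 with at least 10, 1.64 thinned to 5000, 1.11 by the mean of cell CPM, 1.71 without endoderm-rich cells and 0.34 without its richest cells. For GFP, Dppa2 (1.01) was at 0.85 with at least 2 GFP UMIs, 0.95 among Zscan4-zero cells and 0.91 thinned to 5000. Dppa3 (0.20) was at 0.40 among Zscan4-zero cells, 0.76 thinned to 5000 and reversed to -0.62 without its richest cells. Dppa4 (-0.11) reversed to 0.01 among Zscan4-zero cells. Relative Fano factors in the negative library moved to 1.38 for Dppa2 at 20000 UMIs, and to 1.45 at 5000 and 4.15 at 20000 for Dppa3. Higher genes numbered 564, against 1243 from 1 CPM and 1418 at a ratio of 1.5. Lower genes numbered 80, against 260 under TMM, 258 under median of ratios and 393 at a ratio of 1.5; higher calls made up 87.6% of all calls, against 59.2% and 59.6%. Median of ratios gave the same list calls as TMM for the SUMO, methylation and germline lists in number. The cause of these shifts was not tested. The other 45 values, among them those without the 3 shared barcodes and the 378 and 380 higher genes under TMM and median of ratios, stayed within their counting interval or, for gene counts, within 1.5 times.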

Other observations

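Cells rich in a Dppa gene were set against cells with 0 UMIs of it within each library. The genes were named with their values in view, the cutoffs for Dppa2 differ between the libraries, and no difference between the libraries was tested. Genes with at least 20 CPM on either side were compared. At least 2-fold higher in the Dppa2-rich cells were 4.63% of 6087 genes in the positive library and 0.439% of 5243 in the negative library. In the positive library, the 180 cells with 10 or more Dppa2 UMIs had the 2-cell-stage gene Trim43a at 40.1 CPM against 0.985 CPM in the 1219 cells with 0, Tcstv3 at 153 against 21.5 CPM and Usp17lb at 81.5 against 10.6 CPM. In the negative library, the 214 cells with 3 or more Dppa2 UMIs had the endoderm regulators Gata6 at 152 against 30.8 CPM and Sox17 at 36.1 against 10.4 CPM, and the receptor Pdgfra at 30.8 against 7.02 CPM. In the Dppa2-rich cells of the positive library these genes were lower than in its cells with 0 Dppa2 UMIs, with Gata6 at 32.0 against 65.5 CPM, Sox17 at 8.56 against 20.6 CPM and Pdgfra at 7.74 against 19.2 CPM.

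Cells with 2 or more Dppa3 UMIs were described in the same way. At least 2-fold higher in them were 0.646% of 5884 genes in the positive library and 1.06% of 5457 in the negative library. In the positive library these 223 cells had Trim43a at 32.4 against 2.99 CPM, the metabolic enzyme gene Bhmt at 37.7 against 4.88 CPM, and Calcoco2 at 991 against 338 CPM. In the negative library the 35 such cells had Klhl13 at 183 against 14.1 CPM, with a UMI in 29 of the 35, and S100a6 at 314 against 65.0 CPM, of which 44.0% came from 1 cell. The nodal inhibitor Lefty1 and Fgfbp1 were among the 10 leading genes in both, an overlap that was not tested. Lefty1 was at 52.8 against 16.3 CPM in the positive library, where 45.8% of the UMIs in the Dppa3-rich cells came from 1 cell, and at 98.0 against 22.4 CPM in the negative library, where 27.7% did. Fgfbp1 was at 20.8 against 5.99 CPM in the positive library, with 22.1% from 1 cell, and at 36.8 against 2.54 CPM in the negative library, with 56.6% from 1 cell.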
